A study of Hydra vulgaris with 36 samples.

Results

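The comparison described here sets the distal parts of original tentacles from Hydra vulgaris treated with siRNA against the transcription factor Zic4 beside the same tissue of mock-treated animals. Its 8 libraries, 4 of Zic4 RNAi and 4 of mock, were taken by their labels from the 36 RNA-seq libraries of a study on tentacle formation and on epithelial cell identity under Zic4. Mock, Zic4 and Sp5 RNAi tentacles were divided into a distal and a proximal part, and whole tentacles of mock and of combined Zic4/Sp5 RNAi animals formed a separate set. All animals of the 8 libraries were of strain Hm_105, with the genotype given as wild type. Each treatment took 20 to 30 animals through 3 rounds of electroporation, at 1.35 µM per siRNA by the labels' protocols, and tentacles were cut 7 days after the last round. The tissue of corresponding samples was pooled before RNA extraction, so a library is not a single animal. The labels do not say whether the 4 libraries of a group came from separate cultures or electroporations. The p-values below therefore rest on the spread between libraries of a group, which may be technical. For the main comparison that spread was estimated over 25 libraries fitted together, not over these 8 alone. The titles of the whole-tentacle mock samples name gfp, those of the divided mock samples carry only a G, and no label states what the mock animals received. The transcript of Zic4 was not matched by name, so the depth of the knockdown was not measured.

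A Hydra tentacle is a hollow tube of 2 epithelial layers whose outer cells, the battery cells, carry mounted stinging cells. Battery cells no longer divide; they arrive from the body column at the tentacle base, move outward and are shed at the tip, so the distal part holds the oldest cells. Zic4 is a zinc-finger transcription factor of the tentacle, and Sp5, a factor of the same superfamily, restrains Wnt signalling in the Hydra head, where Wnt ligands are made by the organizer at the tip of the mouth cone.

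Library totals were 2.04 to 6.85 M counts in mock and 5.02 to 7.56 M counts in Zic4 RNAi. The 10 most abundant genes took 13.2 to 17.7% of the counts in mock and 11.2 to 13.5% in Zic4 RNAi, so mock libraries were less evenly spread over genes, and mock replicate 4 was both the shallowest and the most concentrated. Across genes, log2 levels of mock replicate 4 correlated at 0.855 to 0.903 with those of the other mock libraries, against 0.950 to 0.954 among the others and 0.919 to 0.948 among the Zic4 RNAi libraries. Every pair within a group differed by more than counting error (chi-square over degrees of freedom 26.3 to 62.8). Levels below are CPM, counts relative to a library size scaled by TMM, and they compare libraries but not genes, since gene length was not used.

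After Zic4 RNAi many genes were called higher from low or undetected levels, and a smaller number of mostly more abundant genes were called lower. Calls of many abundant fallen genes were lost without mock replicate 4, as given below. Of 14332 genes tested, 522 (3.64%) were called at an adjusted p under 0.05 by edgeR's quasi-likelihood test with Benjamini-Hochberg adjustment; 332 (2.32%) were higher and 190 (1.33%) were lower after Zic4 RNAi. The median gene among the risen went from a mean of 1.29 CPM in mock to 17.1 CPM in Zic4 RNAi, while the median gene among the fallen went from 58.3 to 22.1 CPM; the median of all tested genes in mock was 11.9 CPM. The median log2 fold change was 2.89 for the risen genes and -1.30 for the fallen genes, beside 0.00 for all genes. With each gene that had at most 3 counts in every mock library set to its lower bound, the median of the risen genes was 2.36. These medians describe genes that the test itself chose. In this tissue fewer cells of a type and less RNA per cell cannot be told apart.

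**Figure D1:**
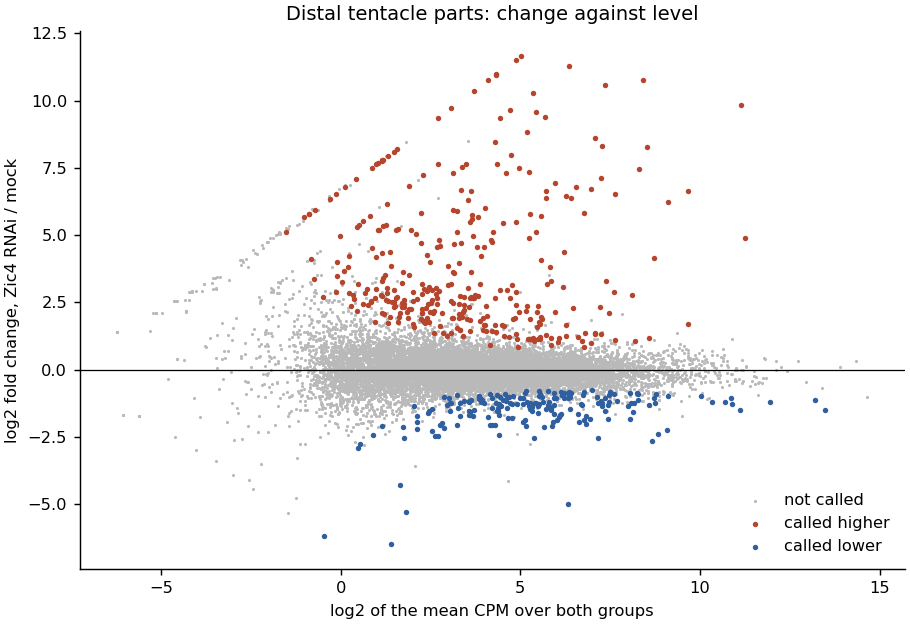
Each point is a tested gene, placed by the log2 of its mean CPM over the 4 mock and 4 Zic4 RNAi distal libraries and by its log2 fold change. Called genes that rose reach far larger fold changes than called genes that fell, and the latter lie mostly at higher levels; the straight upper edge on the left holds genes at 0 in every mock library, whose fitted fold change depends on the prior count of the fit and is no measured size.

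The values did not overlap between the groups for 271 of the 332 risen and 144 of the 190 fallen genes, while 6.54% of all tested genes showed no overlap. Of the other risen genes, 52 had 3 and 9 had 2 Zic4 RNAi libraries above the highest mock library. The call count moved with single libraries: it was 290 without mock replicate 2, 290 without mock replicate 4 and 332 without Zic4 RNAi replicate 2. With the share of the 10 most abundant genes as a covariate, 184 genes were higher and 55 lower; the part of this library property in the calls cannot be told apart from the treatment. The share of called genes that were higher was 63.6%, and it became 77.0% with that covariate, 79.8% in a fit of the 8 libraries alone, 83.7% against a minimum change of 1.5-fold, 76.6% without mock replicate 4 and 50.8% without mock replicate 3.

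Summed over all risen genes, the level was 0.310 to 0.359% of the scaled library size in mock and 2.47, 2.27, 2.71 and 4.76% in Zic4 RNAi replicates 1 to 4. The fallen genes together made up 5.61, 7.09, 3.86 and 11.3% in mock replicates 1 to 4 and 2.15 to 3.47% in Zic4 RNAi. These sums restate the call and are given to show the libraries: Zic4 RNAi replicate 4 was the highest of its group for 173 of the 332 risen genes, and mock replicate 4 was the highest of its group for 124 of the 190 fallen genes. How often each was highest over all tested genes was not counted, so these numbers are not particular to the called genes.

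**Figure D2:**
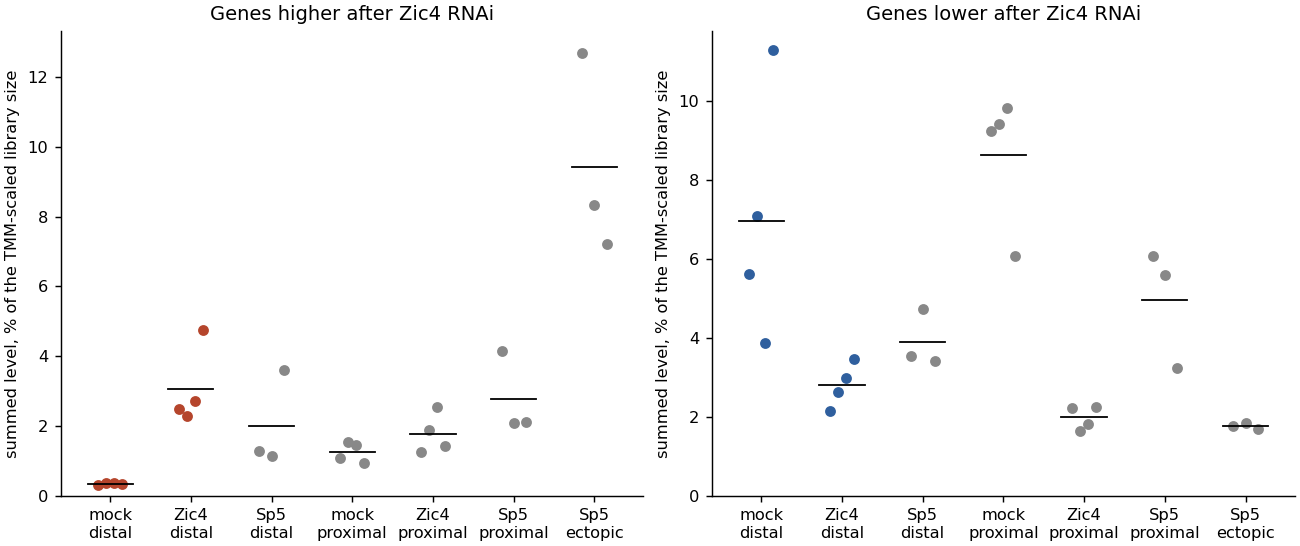
Summed level of the 332 risen genes (left) and the 190 fallen genes (right) in each of the 25 libraries of divided and ectopic tentacles, as a percentage of the TMM-scaled library size; points are libraries and bars are group means, with the compared groups coloured. The 4 mock distal libraries sit together at 0.310 to 0.359% on the left, and mock replicate 4 stands highest among them on the right at 11.3%.

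A set of 80 risen genes, 24.1% of the rise, had at most 3 counts in each mock library, and 26 of them had no count in any. Among all tested genes 361 were at or below that level in mock. Such genes passed the expression filter only through libraries of other groups. Their low mock and higher treated levels are therefore partly fixed by the filter and the call. Together the 80 genes came to 6.56, 9.40, 7.87 and 11.1 CPM in mock replicates 1 to 4 and to 1434, 1240, 1421 and 2743 CPM in Zic4 RNAi replicates 1 to 4. The lower bounds on their rises set the Zic4 RNAi mean against a level of 3 counts in the shallowest mock library (1.58 CPM). A single treated library can therefore lie below its gene's bound. The bounds had a median of 2.80-fold and reached 207-fold. For 9 genes the Zic4 RNAi mean was itself not above that level, and no fold is given for them. In the proximal parts of mock tentacles 46 of the 80 genes also had at most 3 counts per library. The 80 genes summed to 94.5 to 497 CPM there, but LOC100210371 and 100205745, both high in 2 of the 4 Zic4 RNAi distal libraries only, held most of the sum in 3 of the 4 mock proximal libraries. The other 78 genes summed to 37.8 to 87.4 CPM in mock proximal, 6.08 to 10.6 CPM in mock distal and 1110 to 2690 CPM in Zic4 RNAi distal libraries.

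The genes described by name were the 10 largest rises and 10 largest falls among called genes with a RefSeq symbol, a mean of at least 10 CPM in the higher group and no overlap between groups; 121 risen and 79 fallen genes qualified. Most carry a symbol that is only a locus number, with no product given in the table used, so no role is stated for them. LOC100202073 had the highest level of these after treatment. It stood at 3.58, 3.62, 2.46 and 12.7 CPM in mock and at 4600, 2450, 2400 and 8570 CPM in Zic4 RNAi, with means of 5.58 ± 4.76 and 4510 ± 2900 CPM (SD, n = 4 each). The lowest Zic4 RNAi library was far above the highest mock library, for a log2 fold change of 9.83 (SE 1.63, adjusted p by edgeR 0.00143). LOC100214165 was also separated, at 0 to 1.06 CPM in mock and 762, 574, 557 and 841 CPM in Zic4 RNAi (log2 fold change 10.77, SE 1.59, edgeR adjusted p 0.000501).

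LOC100213900 was at 0, 0.181, 0.164 and 1.06 CPM in mock and 272, 224, 280 and 537 CPM in Zic4 RNAi, with a mean at least 207-fold higher. LOC100202039 had a single count in 1 mock library and 152, 125, 89.4 and 281 CPM in Zic4 RNAi, with a mean at least 102-fold higher (edgeR adjusted p 0.000171). In both, each of the 4 treated libraries was far above all mock libraries, and replicate 4 was the highest. LOC100199661 had no count in any mock library and stood at 73.3, 32.8, 37.4 and 117 CPM in Zic4 RNAi, with a mean at least 41.1-fold higher. LOC100212386 had a mean at least 51.1-fold higher, at 92.8, 40.1, 41.8 and 149 CPM beside a single mock count. The treated libraries were less even for LOC100204479, with no mock count and 4.19, 24.1, 56.1 and 151 CPM in Zic4 RNAi, and its call was lost under voom (adjusted p 0.119).

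The other named rises, LOC100214927, LOC101238258 and LOC101236263, had no count in any mock library and Zic4 RNAi means of 39.8 ± 23.2, 34.4 ± 11.1 and 16.8 ± 10.9 CPM (SD, n = 4). Their lower bounds were 25.1-fold, 21.7-fold and 10.6-fold, with edgeR adjusted p-values of 0.00979, 0.00201 and 0.0131. The calls of LOC100214927 and LOC101236263 were lost with the complexity covariate, at adjusted p 0.0521 and 0.0688. Among called genes without a symbol, the largest rises were those of 105843313 and 105845410, both without a mock count, at 17.3 to 79.8 CPM and 16.1 to 34.9 CPM in Zic4 RNAi. The rule's next gene by size of rise, LOC105848775, had a log2 fold change of 9.58 beside 9.71 for LOC101236263, so the list ends at no natural break.

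**Figure D3:**
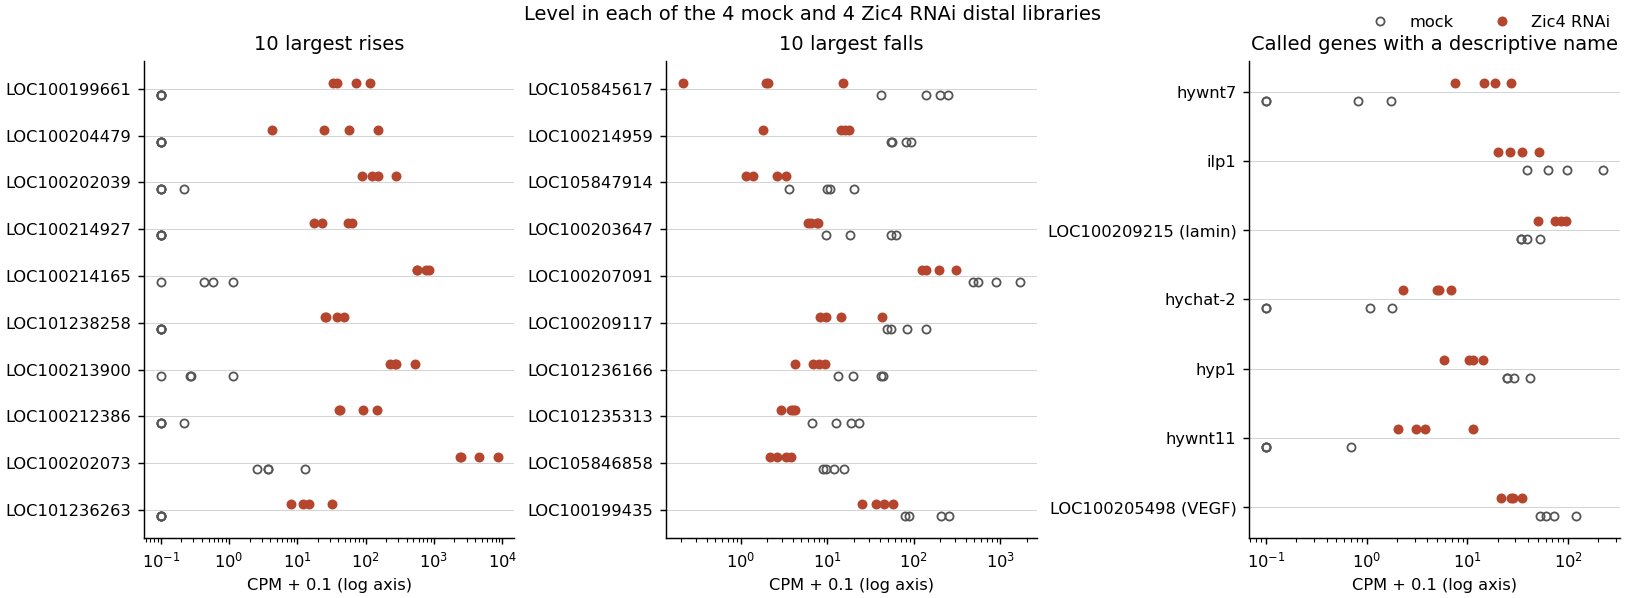
CPM plus 0.1 on a log axis for each of the 4 mock (open) and 4 Zic4 RNAi (filled) distal libraries; the panels hold the 10 largest rises, the 10 largest falls and the 7 called genes with a descriptive name. Groups are separated in every row of the first 2 panels, as the choice required, and overlap only for ilp1 and lamin in the third.

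By level rather than by fold, the most abundant risen gene was LOC100205558, at 43.5, 155, 160 and 279 CPM in mock and 3420, 2870, 2460 and 10100 CPM in Zic4 RNAi (log2 fold change 4.89, SE 0.70, edgeR adjusted p 2e-04). It was chosen after its values were seen. In all, 48 risen genes reached a mean of 100 CPM in Zic4 RNAi, and 64 fallen genes had that mean in mock. On the HydraT2T_AEP assembly of RefSeq, used here only for which genes lie next to each other, LOC100205558 lies beside LOC100200514 and LOC100201911. LOC100200514 went from 2.13 to 6.87 CPM in mock to 278 to 1310 CPM in Zic4 RNAi, and LOC100201911 from 28 to 67.5 CPM to 80.1 to 98.7 CPM. All 3 neighbours were called higher, with log2 fold changes of 7.46 for LOC100200514 and 1.04 for LOC100201911.

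Across the assembly, 32 of 212 risen genes with a position (15.1%) had a risen gene as the next tested neighbour, in 17 pairs, and 8 of 114 fallen genes (7.02%) had a fallen one, in 4 pairs. Of the 8898 tested genes with a position, 2.38% had risen and 1.28% had fallen. These are shares of single genes, while a neighbour on either side counts for 15.1% and 7.02%. The measures are therefore unlike, and the pairs were not tested against these shares. How reads shared between similar neighbouring genes were counted is not given in the sources used here, so pairs of related copies are uncertain. The other run of 3 risen neighbours did not move as a unit. LOC100205247 was at 74.0, 99.7, 147 and 177 CPM in Zic4 RNAi, against 0.656 to 1.58 CPM in mock. LOC100201633 reached 496 and 248 CPM in Zic4 RNAi replicates 2 and 4 but 0.751 and 0.140 CPM in replicates 1 and 3, beside 0.358 to 4.23 CPM in mock. LOC100210371 likewise stood at 62.3 and 36.2 CPM in replicates 2 and 4 and at no more than 0.107 CPM in replicates 1 and 3. For LOC100201633 and LOC100210371 the call rests on 2 of 4 libraries. Both were high in mock proximal libraries, at 243 to 3400 CPM and 22.3 to 321 CPM, whereas LOC100205247 was at 1.63 to 8.95 CPM there.

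The falls were shallower, and 132 of the 190 fallen genes kept a mean of at least 10 CPM in Zic4 RNAi. These genes started from a median of 58.3 CPM in mock, against 11.9 CPM over all tested genes. The share of all tested genes at that level was not counted, so the 132 is no separate result about the falls. The largest named fall was that of LOC105845617, which stood at 137, 249, 41.1 and 201 CPM in mock and 14.9, 0.114, 1.96 and 1.82 CPM in Zic4 RNAi. Means were 157 ± 89.8 and 4.70 ± 6.86 CPM (SD, n = 4 each), the groups did not overlap, for a log2 fold change of -5.01 (SE 1.15, adjusted p by edgeR 0.0182). Leaving out mock replicate 4 or Zic4 RNAi replicate 3 or 4, or adding the complexity covariate, ended this call, with adjusted p-values up to 0.183. LOC100207091 fell from 893, 555, 477 and 1680 CPM to 193, 124, 310 and 139 CPM (log2 fold change -2.23, SE 0.45, adjusted p by edgeR 0.00478). The highest treated library lay below the lowest mock library, though with the complexity covariate it was not called (adjusted p 0.0817).

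LOC100214959 stood at 91.9, 81.2, 54.1 and 55.5 CPM in mock and 17.5, 1.71, 15.7 and 14.4 CPM in Zic4 RNAi (log2 fold change -2.53, SE 0.46, edgeR adjusted p 0.00180). It stayed called under every alternative tried. The other 7 named falls, LOC105847914, LOC100203647, LOC100209117, LOC101236166, LOC101235313, LOC105846858 and LOC100199435, had log2 fold changes between -2.48 and -1.93 and mock means between 11 and 156 CPM. Among called genes without a symbol, 105845955 fell from 226 to 1240 CPM in mock to 60.2 to 180 CPM in Zic4 RNAi, and 100205686 fell from 66.7 to 353 CPM to 24.0 to 62.5 CPM. The call of 100205686 was lost with the complexity covariate and without mock replicate 2 or 4 or Zic4 RNAi replicate 1 or 2 (adjusted p up to 0.201). That of LOC100199435 was lost with the covariate and without mock replicate 4 or Zic4 RNAi replicate 4, and that of LOC101236166 with the covariate and without mock replicate 2. LOC101235313 and LOC105846858 lost theirs with the covariate. The next gene of the rule, LOC101240162, fell by 1.84 on the log2 scale beside 1.93 for LOC100199435.

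The most abundant fallen genes changed by less. LOC100204518 was at 11800, 18200, 6010 and 32000 CPM in mock and 3180, 6010, 4800 and 9830 CPM in Zic4 RNAi, with overlapping groups (log2 fold change -1.51, SE 0.41, edgeR adjusted p 0.0353). LOC100203778, at 10800, 11700, 8080 and 21000 CPM in mock and 4000, 5190, 7710 and 6590 CPM in Zic4 RNAi, did not overlap (log2 fold change -1.13, edgeR adjusted p 0.0194). In both genes mock replicate 4, which also had the most concentrated counts, was the highest library. Without it neither gene was called: the log2 fold change was -1.01 for LOC100204518 (adjusted p by edgeR 0.243) and -0.79 for LOC100203778 (adjusted p by edgeR 0.135). LOC100206743, LOC100211831, LOC100207118, 100199148, 100211499, 100207558, 100212469 and LOC100207462, also abundant in mock, lost their calls too, at edgeR adjusted p from 0.0515 to 0.256. Their log2 fold changes stayed negative, from -0.965 to -0.717. LOC100207091 and 100207228 kept their calls without that library, at edgeR adjusted p 0.03 and 0.00046. Only 3 fallen genes had at most 3 counts in each Zic4 RNAi library: LOC100214732, 101241800 and 105848635. LOC100214732, at 2.51, 5.42, 2.79 and 10.0 CPM in mock, had a single count in 1 treated library. These 3 genes were named after their values were seen.

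Genes with a descriptive RefSeq name were few: 120 of all identifiers, of which 104 were tested, 4 higher, 3 lower and 97 not called. Of these, 97 were placed by hand in 15 role groups, with 85 tested, 3 higher, 2 lower and 80 not called, a median log2 fold change of -0.02. The background is the 3.64% called among all genes, against which 5 of 85 was not tested, and the names sample few members of any pathway. The results below follow their roles, from secreted ligands to receptors, transcription factors and cell type markers.

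Wnt ligands are secreted signals that pattern the oral end of Hydra. Of 11 ligand genes matched, 6 were tested, 2 rose and none fell, with a median log2 fold change of -0.23. hywnt7, a ligand of the head organizer, was at 0, 0.723, 1.64 and 0 CPM in mock and 7.51, 18.9, 14.7 and 27.1 CPM in Zic4 RNAi. Every treated library was above every mock library, for a log2 fold change of 4.66 (SE 1.27, adjusted p by edgeR 0.0428). hywnt11, also of the head organizer, was at 0.596, 0, 0 and 0 CPM in mock and 3.00, 3.66, 1.96 and 11.3 CPM in Zic4 RNAi, again without overlap (log2 fold change 4.38, SE 0.82, edgeR adjusted p 0.00224). hywnt11 stayed called under every alternative tried. The call of hywnt7 was lost in 10 of 16 alternatives, among them voom and the fits without mock replicate 1, 2 or 4 or without Zic4 RNAi replicate 2, 3 or 4, with adjusted p-values up to 0.127. In mock proximal libraries hywnt7 already stood at 11.8, 5.70, 4.97 and 41.0 CPM. It was called neither in proximal parts (edgeR adjusted p 0.289) nor in whole tentacles under combined RNAi (edgeR adjusted p 0.135). By contrast, hywnt11 was at 0 to 1.23 CPM in mock proximal libraries. It was called higher in proximal parts (edgeR adjusted p 0.0348) but not in whole tentacles (edgeR adjusted p 0.168).

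The remaining ligands were not called. hywnt5a, which marks the zone of tentacle and bud outgrowth, was at 251 to 377 CPM in mock and 187 to 356 CPM in Zic4 RNAi (log2 fold change -0.19). hywnt8 stood at 49.3, 101, 70.5 and 73.4 CPM in mock and 38.2, 27.3, 33.5 and 64.7 CPM in Zic4 RNAi (log2 fold change -0.85, edgeR adjusted p 0.174). Wnt3a (LOC100203050), the gene matched to the main organizer ligand, was at 2.13 to 10.0 CPM in mock and 1.01 to 3.54 CPM in Zic4 RNAi (log2 fold change -0.92, edgeR adjusted p 0.500). hywnt16 ran from 6.15 to 13.6 CPM in mock and from 5.61 to 11.8 CPM in Zic4 RNAi. The 5 ligands that were not tested were low in all 8 libraries: hywnt1 and hywnt9/10b had no count, and hywnt2, hywnt9/10a and hywnt9/10c had no level above 0.904 CPM. The 4 genes of Wnt reception, the frizzled receptor hyfzd5/8, beta-catenin (ctnnb1), its kinase GSK3 and the planar polarity protein stbm, were not called, with log2 fold changes from -0.19 to 0.26.

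Among 6 genes of other growth signals, 2 fell and none rose, with a median log2 fold change of -0.82. VEGF (LOC100205498), a secreted growth factor, was at 60.8, 72.1, 52.3 and 121 CPM in mock and 27.3, 21.4, 35.2 and 28.1 CPM in Zic4 RNAi, without overlap (log2 fold change -1.44, SE 0.36, edgeR adjusted p 0.0197). ilp1, an insulin-like peptide, was at 62.9, 98.0, 39.2 and 221 CPM in mock and 20.3, 26.7, 35.0 and 51.9 CPM in Zic4 RNAi, with overlap (log2 fold change -1.64, SE 0.43, edgeR adjusted p 0.0306). Neither fall was called with the complexity covariate, against a minimum change of 1.5-fold or without mock replicate 4, Zic4 RNAi replicate 1 or Zic4 RNAi replicate 2, where adjusted p-values reached 0.366 for VEGF and 0.340 for ilp1. VEGF also lost its call without Zic4 RNAi replicate 4, and ilp1 without mock replicate 2 or Zic4 RNAi replicate 3, under voom and in the compared groups alone. Of the others, the insulin-like peptide ilp2, the receptor notch and the BMP signal transducer Smad1 had log2 fold changes of -0.49, 0.06 and -0.08 and were not called.

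**Figure D4:**
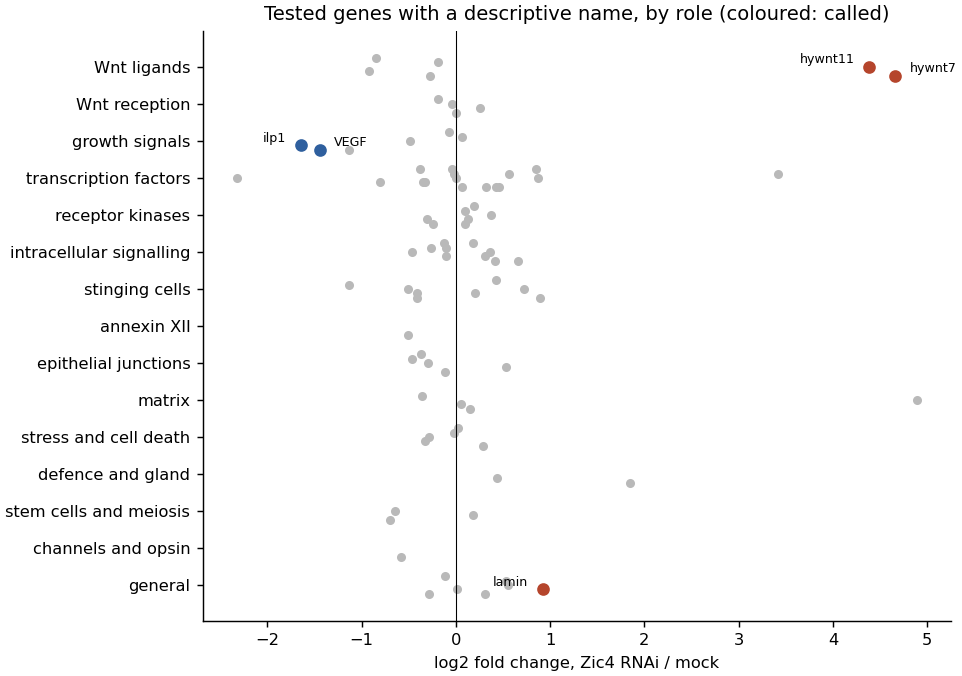
Log2 fold change of Zic4 RNAi over mock in distal parts for the 85 tested genes placed in role groups; each point is a gene, and the 5 called genes are coloured and labelled. Most genes lie within 1 log2 unit of 0; the grey points far to the right are Bra1 and HMP1, each counted in a single Zic4 RNAi library.

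None of 16 tested transcription factors was called by edgeR. They include zic1, a related gene of the Zic family, at 17.3, 46.1, 32.9 and 23.2 CPM in mock and 36.4, 19.3, 40.5 and 22.0 CPM in Zic4 RNAi, where the treated values lie inside the mock range (log2 fold change -0.02, SE 0.57). Alx (LOC100201806), a homeobox gene of the tentacle boundary, was at 24.9 to 56 CPM in mock and 18.8 to 38.6 CPM in Zic4 RNAi. CnNK-2 (LOC100214228), a homeobox gene of the basal disk and the only basal disk gene matched, had 9 counts over the 4 mock and 2 over the 4 Zic4 RNAi libraries. With that single gene, the basal disk was hardly sampled by name. CnOtx, jun, SRF and CUX1, the factors above 30 CPM in every mock library, had log2 fold changes from -0.33 to 0.06.

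Annexin XII (LOC100203975), a calcium-binding protein of tentacle epithelium, was at 1890, 2990, 2140 and 7780 CPM in mock and 2590, 2150, 1550 and 4140 CPM in Zic4 RNAi. The groups overlapped and it was not called (log2 fold change -0.51, SE 0.39, edgeR adjusted p 0.614). It was abundant in all 8 libraries, whose label is tentacle. The 8 tested genes of stinging cells, among them the capsule proteins nowa and nematogalectin A, summed to 22.4 to 61.8 CPM in mock and 22.3 to 62.9 CPM in Zic4 RNAi, and none was called. The gland cell gene kazal1, a protease inhibitor gene, was at 0.954 to 4.23 CPM in mock and at 0.858, 24.2, 0.981 and 0.404 CPM in Zic4 RNAi. Its high value fell in Zic4 RNAi replicate 2, one of the libraries in which LOC100201633 and LOC100210371 were high; its part in those calls was not tested.

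The epithelial junction genes (5 tested), extracellular matrix genes (4), receptor kinases (7), intracellular signalling genes (10), genes of stress and cell death (5), genes of stem cells and meiosis (3) and the opsin hydropsin2 held no called gene. The matrix gene HMP1 had counts in Zic4 RNAi replicate 2 alone, at 2.06 CPM. In a group of 7 general genes, lamin (LOC100209215), a filament protein of the nuclear envelope, was higher, at 33.8, 39.4, 52.4 and 33.8 CPM in mock and 94.4, 73.6, 50.5 and 84.7 CPM in Zic4 RNAi (log2 fold change 0.92, SE 0.25, edgeR adjusted p 0.0342). One treated library lay inside the mock range, and the call was lost in 10 of 16 alternatives. Outside the role groups, hychat-2 rose from at most 1.67 CPM in mock to 2.22 to 6.73 CPM (log2 fold change 2.52, edgeR adjusted p 0.0240), a call lost in 7 of 16 alternatives, and hyp1 fell from 24.7 to 41.7 CPM to 5.79 to 14.1 CPM (log2 fold change -1.53, edgeR adjusted p 0.00221), a call kept in all of them.

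The proximal parts give a second reading of the same treatment with mock and Zic4 RNAi libraries of their own (n = 4 each). There 17.7% of all tested genes were called higher and 15.6% lower, so calls were far more frequent. Of the 332 genes risen in distal parts, 186 (56%) were called higher and 6 lower in proximal parts; of the 190 fallen genes, 164 (86.3%) were called lower and none higher. These are 7.34% of the proximal rises and 7.35% of the proximal falls. Medians of the proximal log2 fold change were 1.90 for the risen and -1.58 for the fallen genes, beside 0.00 for all genes, and the sign was shared by 297 risen (89.5%) and 186 fallen genes (97.9%), where 50.2% of all genes were positive. In mock proximal libraries 17.2 to 23.1% of counts fell in 10 genes, against 10.7 to 13.8% in Zic4 RNAi proximal libraries; the part of this difference in the proximal calls was not tested here.

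The largest named rise by level was uneven over proximal replicates. LOC100202073, above 2400 CPM in every Zic4 RNAi distal library, stood at 24.5, 917, 2630 and 9.18 CPM in the Zic4 RNAi proximal libraries, beside 1.43 to 73.2 CPM in mock proximal libraries. LOC100202039 was at 5.45, 60.3, 96.0 and 1.94 CPM there, beside at most 0.488 CPM in mock proximal libraries. In both genes proximal replicates 2 and 3 were high and replicates 1 and 4 were lower. The sum over the 78 genes nearly absent from mock distal libraries was 196, 548, 1110 and 197 CPM in Zic4 RNAi proximal replicates 1 to 4. None of the 31 genes named by rule had a called difference between the distal and the proximal effect by edgeR, where 2843 of all genes had an unadjusted p under 0.05; VEGF, with proximal means of 108 CPM in mock and 11.9 CPM in Zic4 RNAi, came closest (difference 1.73 on the log2 scale, edgeR adjusted p 0.0505).

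The difference between the effects was tested for every gene as an interaction, and 545 genes (3.80%) were called, 37 of them among the 522. In 33 risen genes the log2 change was more positive in distal than in proximal parts, and in 2 the rise was smaller in distal parts. In 2 fallen genes the change was more negative in distal parts. A proximal change in the same direction is not implied: it was -1.67 for the risen LOC101236584 and 0.63 for the fallen 105847747. The distal libraries that chose the 522 genes also enter the interaction. The choice therefore favours a larger distal effect, and these directions are no separate result. The lowest adjusted p was that of LOC100209159, at 2.03, 2.53, 4.59 and 7.39 CPM in mock distal and 147, 200, 52.3 and 453 CPM in Zic4 RNAi distal libraries. In proximal libraries it was at 168 to 411 CPM in mock and 211 to 307 CPM in Zic4 RNAi (difference 5.96, SE 0.86, edgeR adjusted p 0.00216). 100203726 had the same order, with means of 3.77 ± 1.27 and 24.3 ± 9.71 CPM (SD, n = 4) in mock and Zic4 RNAi distal libraries and 46.7 and 32.2 CPM in the proximal ones (difference 3.28, edgeR adjusted p 0.00401).

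Over the 33 genes, the median of gene means was 3.98 CPM in mock distal, 30.3 CPM in Zic4 RNAi distal, 52.4 CPM in mock proximal and 36.4 CPM in Zic4 RNAi proximal libraries. All 33 were higher in mock proximal than in mock distal libraries, a pattern the interaction partly selects, since both mock levels enter it. Of these genes 6 were called lower and 2 higher in proximal parts. In the 2 genes with the smaller distal rise, LOC100201403 went from 49.1 to 102 CPM to 120 to 181 CPM distally but from 68.9 to 91.5 CPM to 254 to 371 CPM proximally, and LOC100213650 from a mean of 1.92 to 7.52 CPM distally and 1.03 to 22.4 CPM proximally. With the complexity covariate, an alternative added after seeing the data, no difference was called by edgeR, while 1263 genes had an unadjusted p under 0.05 against 2843 without it. Distal and proximal mock libraries differ in that property, and its role in these 37 genes cannot be told apart from that of position. The labels do not say whether same-numbered distal and proximal libraries came from the same animals. With a block for each treatment and replicate number, added after seeing the data, edgeR called no difference (lowest adjusted p 0.0543). Leaving out single libraries moved the count over all genes widely. It was 46, 188 and 1470 without mock distal replicates 1, 3 and 4, and 79, 175 and 1401 without mock proximal replicates 2, 3 and 4. It was 61 without Zic4 RNAi distal replicate 4, and 279, 157 and 240 without Zic4 RNAi proximal replicates 1, 2 and 3.

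**Figure D5:**
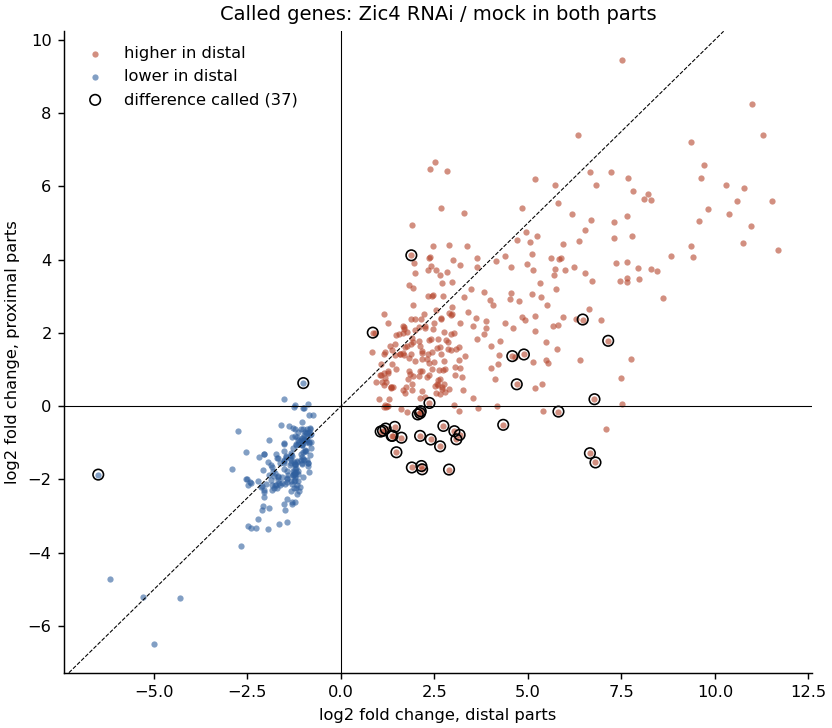
Log2 fold change of Zic4 RNAi over mock in distal (x axis) and proximal parts (y axis) for the 522 genes called in distal parts; circles mark the 37 genes whose effects differed by the interaction test and the dashed line marks equal effects. Fallen genes cluster near the line, while 33 circled risen genes lie below it, many near or under 0 in proximal parts.

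Sp5 RNAi distal parts (n = 3) allowed a test of which knockdown gave which level without the mock libraries that both comparisons share. That test called 45 genes (0.314%), of which 21 had the higher level after Zic4 RNAi and 24 after Sp5 RNAi, and 1580 had an unadjusted p under 0.05. Of the 522 genes, 8 were among the 45, namely 6 risen genes that were higher and 2 fallen genes that were lower after Zic4 than after Sp5 RNAi. The Zic4 RNAi distal libraries that chose the 522 genes also enter this test. The choice therefore favours these directions. LOC100208457 stood out, at 3.34, 3.44, 4.43 and 1.58 CPM in mock, 16.4, 34.7, 17.2 and 24.5 CPM in Zic4 RNAi and 2.51, 4.46 and 2.26 CPM in Sp5 RNAi. The lower pair of Sp5 RNAi values lay within the mock range and the highest just above it, and Zic4 and Sp5 RNAi differed by 2.90 on the log2 scale (SE 0.42, edgeR adjusted p 0.000968).

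LOC100210515 was the clearest of the 2 falls, at 3.28 to 17.4 CPM in mock, 1.26 to 3.50 CPM in Zic4 RNAi and 22.8, 29.1 and 17.8 CPM in Sp5 RNAi (difference -3.17, SE 0.54, edgeR adjusted p 0.00651). The other 6 genes were LOC100201106, LOC100214732, LOC101234926, 105844618, 100192235 and 100202949. These 8 genes were chosen by the test and named after their values were seen. The total of 45 genes was unstable: it was 4 without Sp5 RNAi replicate 2, 10 without Sp5 RNAi replicate 1, 11 and 12 without Zic4 RNAi replicates 2 and 4, 20 without Sp5 RNAi replicate 3 and 128 without Zic4 RNAi replicate 3.

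None of the differences between the knockdowns passed the test for the named rises, and their standard errors were 0.83 to 1.27 on the log2 scale. LOC100202073 averaged 4510 ± 2900 CPM (SD, n = 4) after Zic4 RNAi and 2440 ± 1970 CPM (SD, n = 3) after Sp5 RNAi, with single Sp5 RNAi values of 1140, 1470 and 4700 CPM (difference 0.89, SE 1.21). LOC100214165 averaged 683 and 586 CPM, LOC100202039 162 and 107 CPM, and LOC100212386 81.0 and 22.5 CPM. LOC100203647, a fall, averaged 6.82 ± 0.864 CPM (SD, n = 4) under Zic4 RNAi and 23.2 ± 1.01 CPM (SD, n = 3) under Sp5 RNAi, beside 35.9 CPM in mock (difference -1.77, SE 0.54, edgeR adjusted p 0.178). For hywnt7 the means were 17.0 CPM after Zic4 RNAi and 4.12 CPM after Sp5 RNAi (difference 2.05, SE 1.09, edgeR adjusted p 0.509).

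Across the groups of divided tentacles, the median of gene means over the 332 risen genes was 1.29 CPM in mock distal, 2.57 CPM in mock proximal, 12.4 CPM in Zic4 RNAi proximal, 10.9 CPM in Sp5 RNAi distal, 11.5 CPM in Sp5 RNAi proximal and 17.1 CPM in Zic4 RNAi distal libraries. It was 29.8 CPM in ectopic tentacles, those formed away from the mouth ring, of Sp5 RNAi animals (n = 3). Mock and Zic4 RNAi distal libraries chose the risen and fallen genes, so the gap between these groups restates the call. The Sp5 RNAi distal libraries were uneven: the risen genes summed to 1.28, 1.13 and 3.60% of the scaled library size in replicates 1 to 3. The fallen genes were at 58.3 CPM in mock distal, 58.8 CPM in mock proximal, 22.1 CPM in Zic4 RNAi distal and 18.1 CPM in Zic4 RNAi proximal libraries. After Sp5 RNAi they were at 31.6 CPM in distal parts, 30.8 CPM in proximal parts and 11.5 CPM in the ectopic tentacles. LOC100202073 reached 18300, 16500 and 11200 CPM in the ectopic tentacles, above its highest value after Zic4 RNAi.

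Undivided original tentacles under combined Zic4/Sp5 RNAi (n = 4) were compared with mock libraries of their own (n = 3) in a separate fit, in which 2.36% of tested genes were called higher and 2.03% lower. Of the risen genes, 329 were tested there, 135 (41.0%) were higher and 1 lower; of 189 fallen genes, 50 (26.5%) were lower and none higher. These are 38.6% of the rises and 16.6% of the falls in whole tentacles. Median log2 fold changes were 2.36 for the risen and -1.12 for the fallen genes, beside 0.04 for all genes. LOC100202073 averaged 1.58 ± 1.00 CPM (SD, n = 3) in mock and 2270 ± 1980 CPM (SD, n = 4) in the combined RNAi, and all 10 named rises but LOC101238258 (edgeR adjusted p 0.0629) were called there. Of the 10 named falls, LOC100214959, LOC100209117 and LOC101236166 were called. 100205686, which fell in Zic4 RNAi distal parts, had 82.4 ± 37.6 CPM in mock and 249 ± 322 CPM in the combined RNAi and was not called.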

How the data were processed

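RNA-seq was measured in 36 libraries of Hydra tentacles; this account uses 8 of them in its main comparison. Per the labels' protocols, cDNA was amplified by SmartSeq2 and tagmented with Tn5, with no molecular identifiers mentioned, so reads are not independent molecules and count floors cover counting error only. Per the submitters' processing notes, bcl2fastq and STAR 2.5.0 were used. The counting program, genome build and strand setting are not given in the sources used here. The authors deposited raw whole-number counts for 22608 genes per library, used as deposited. Numeric identifiers were matched to RefSeq (HydraT2T_AEP, symbols only): 9547 matched (42.2%), and 8898 of those tested (62.1%).

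The counts of 25 libraries were fitted together with edgeR 4.0.16 in R 4.3.3: filterByExpr (14332 genes kept), TMM scaling, group as the only factor, robust quasi-likelihood F tests and Benjamini-Hochberg adjustment. The 11 whole-tentacle libraries were fitted apart (14826 genes). Standard errors come from log2 fold change and F. Where no library of an arm held over 3 counts of a gene, its fold is a lower bound. The bound sets the mean of the other arm against 3 counts in the shallowest library of the low arm. Distal and proximal effects were compared by interaction. Replicate numbers were not treated as pairing samples. Alternatives were DESeq2 1.42.0, limma 3.58.1 voom, RLE factors, no filter, the compared groups alone, a replicate block, a covariate for the share of the 10 most abundant genes, a minimum change of 1.5-fold and leaving out each library.

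The naming rule took the 10 largest rises and falls with a symbol, at least 10 CPM and no overlap, the 2 largest of each without a symbol, and called genes with a descriptive name. Since the table used gives no product descriptions, any RefSeq symbol counted as a name, and role groups were made by hand from the symbols and synonyms, after the table was seen, in addition to 26 name patterns, of which 16 matched a gene. The patterns for Wnt genes called the 2 ligands described, and no other pattern held a called gene. The comparison, rule and lists were chosen with earlier results of these data known. The values of 1 tested gene of a role group are not reported here.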

Additional observations from a re-analysis of the deposited data

Results flagged for a closer look

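In 72 groups of 4 values looked at, the highest or lowest library stood apart from the others of its group in 6. The rule's chance rate of about 1 in 20 is for normally distributed values. It does not hold here, since a library with a count beside others with none always meets the rule. In 5 of these a mock library was the highest of values near 0: 0.119 CPM (1 count) for LOC100202039 and for LOC100212386 in replicate 1, 0.596 CPM for hywnt11 in replicate 1, 1.06 CPM for LOC100213900 in replicate 4 and 12.7 CPM for LOC100202073 in replicate 4. The last lies below 2400 CPM, the lowest Zic4 RNAi library for that gene. The other was LOC105845617 in Zic4 RNAi replicate 1, at 14.9 CPM beside 0.114 to 1.96 CPM in the other treated libraries.

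The effect of Zic4 RNAi differed between distal and proximal parts by the interaction test for the genes named for it. On the log2 scale, distal minus proximal, the differences were 5.96 for LOC100209159, 3.28 for 100203726, 3.57 for LOC101236584, 3.75 for LOC101235312, -1.64 for 105847747, -1.16 for LOC100201403 (-1.155 before rounding), -4.62 for LOC100214732 and -2.24 for LOC100213650 (-2.235 before rounding). The first 4 stayed called in every fit that left out a library, in the fit of the 16 compared libraries alone and with the replicate block. The other 4 lost the call in the latter fits, at adjusted p 0.122, 0.176, 0.0970 and 0.143 with the block, and in 6 to 13 of the 16 fits without a library. All 8 lost it with the complexity covariate, at adjusted p from 0.154 to 0.630, and with a block for each treatment and replicate number, added after seeing the data, at adjusted p from 0.0543 to 0.274.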

How the results depend on the processing

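None of the named genes changed direction in any alternative: of 496 gene and alternative pairs over 31 genes, 433 kept the call and 63 lost it. The 522 called genes of the distal comparison became 253 when only the compared groups were fitted, 239 with the complexity covariate, 239 against a minimum change of 1.5-fold and 309 with the replicate block; DESeq2 called 757, voom 461, RLE factors 520 and no filter 438, and leaving out single libraries gave 290 to 604. Of the 522 genes, 520 were called again by DESeq2, 411 by voom and 241 in the compared groups alone. No pairing by replicate number was seen: deviations of same-numbered mock and Zic4 RNAi libraries correlated at -0.13, -0.07, 0.00 and 0.31, and not every library correlated best with its own number. Same-numbered distal and proximal libraries correlated at -0.56 to 0.01 in mock and -0.07 to 0.23 in Zic4 RNAi, which does not show pairing. With so few libraries per group and no label on the matter, these values cannot exclude that same-numbered parts came from the same animals. The 545 differences between distal and proximal effects became 63 in the compared groups alone, 17 with the replicate block (7 among the 37), 0 by edgeR with a replicate block within each treatment, added after seeing the data (1811 at an unadjusted p under 0.05, lowest adjusted p 0.0543), and 0 with the complexity covariate, and 46 to 1470 without single libraries. The 45 differences between Zic4 and Sp5 RNAi became 38 in the compared groups alone and 56 with the covariate, and 4 to 128 without single libraries. The cause of these shifts was not tested. Depth limits low genes in mock replicate 4, where 3 counts are 1.58 CPM.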

Other observations

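LOC100197921 was called higher, at a log2 fold change of 6.63 (SE 1.49) and an edgeR adjusted p of 0.0135, yet its level came from a single library: it stood at 19.9, 24.0, 6390 and 15 CPM in Zic4 RNAi replicates 1 to 4 and at 8.98 to 23.1 CPM in mock. It was the only risen gene with over 90% of its summed Zic4 RNAi level in 1 library.

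Of the 332 risen genes, 51 had a mean in mock proximal libraries above that in Zic4 RNAi distal libraries, and 59 had a mock proximal mean more than 10 times the mock distal mean. Of the 190 fallen genes, 5 had a mock proximal mean below their Zic4 RNAi distal mean. The shares over all tested genes were not counted. Mock distal and Zic4 RNAi distal levels chose both sets, so these counts are no trait of theirs apart from that choice.

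Outside the 522 genes, the direct comparison of the knockdowns held genes that were higher after Sp5 RNAi than after Zic4 RNAi. LOC105850880 averaged 4.48 ± 3.69 CPM (SD, n = 4) in mock, 7.35 ± 1.48 CPM (SD, n = 4) after Zic4 RNAi and 85.1 ± 15.8 CPM (SD, n = 3) after Sp5 RNAi in distal parts. LOC105850223 averaged 35.8, 40.3 and 364 CPM in the same order, and LOC105847521 averaged 0.627, 0.311 and 10.1 CPM, beside 6.18 to 15.7 CPM in mock proximal libraries. These genes were named after their values were seen.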
